A study of Rattus norvegicus with 6 samples.

Results

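Circadian clock genes were examined in cultured rat stromal cells of fat tissue, called adipose-derived stem cells (ADSCs), which can become fat cells, after adipogenic induction and without it. The set holds 10 genes by name: Clock, Cry1, Cry2, Per2, Per3, Nr1d1, Nr1d2, Dbp, Tef and Bhlhe41. A gene was taken where the array's annotation gave a feature that symbol and no other. This found 9 of the 10 genes, each with 1 feature, among 18166 genes measured, and Nr1d2 was not analysed here. The induced cells were ADSCs kept for 7 days in alpha-modified Eagle medium with 20% fetal bovine serum, 5 µg/ml insulin, the glucocorticoid dexamethasone at 1 µM and the phosphodiesterase inhibitor 3-isobutyl-1-methylxanthine (IBMX), which increases cAMP, at 0.5 mM (3 arrays). The control cells were ADSCs in the same basal medium with 10% serum and none of the inducers (3 arrays). Serum therefore differed together with the inducers. The fat was inguinal and the donors were female Wistar rats aged 2 weeks, and the labels call the arrays of each group biological replicates without saying whether they came from separate animals. P-values therefore measure the spread between these cultures, which may be technical. The hour of harvest, the time since the last medium change and the time control cells spent in culture are not given in the sources used here.

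The mammalian clock is a feedback loop of transcription. CLOCK and BMAL1 bind E-box sequences and switch on the Per and Cry genes, whose proteins return to the nucleus and block CLOCK and BMAL1. A connected loop runs through the nuclear receptors NR1D1 and NR1D2, which repress Bmal1, and the ROR receptors, which activate it. CLOCK and BMAL1 also drive Dbp and Tef, transcription factors of the PAR bZIP family that bind D-box sequences, while NFIL3 represses through the same sequences. The loop runs in cultured fibroblasts and fat cells as well as in the brain, and a glucocorticoid pulse or fresh serum can set its phase in culture. Transcript levels of most of these genes can therefore depend on the time of harvest, and an array reads each culture at a single time.

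Values are log2 RMA signals, a normalized array brightness on which 1 unit is a 2-fold difference, and every difference is induced minus control. Induced replicate 3 stood apart: 2745 and 2664 of 36685 features were over 2-fold away from induced replicates 1 and 2, which differed from each other at 546. The mean of 10 mature adipocyte markers was 10.50, 10.49 and 11.47 on induced replicates 1 to 3. On control replicates 1 to 3 it was 8.27, 6.93 and 6.79. This mean was thus highest on induced replicate 3 and, among controls, on control replicate 1. The mean of 8 measured stromal markers was 8.57, 8.55 and 7.51 on the induced arrays and 9.10, 8.91 and 8.89 on the control arrays. Of the markers of other cell types, the 10 macrophage and leukocyte genes averaged 7.65, 7.16 and 6.04 on the induced arrays and 6.68, 7.00 and 5.54 on the control arrays. Among them Lyz2 varied most, at 11.56, 10.99 and 4.44 against 9.31, 10.19 and 4.71, and 8 estimates were positive and 2 negative. The mean of 5 measured endothelial genes stayed between 4.90 and 5.27 on all 6 arrays, and that of 6 mural genes between 5.95 and 6.36. Single genes ranged more widely, such as Tek at 6.51 and Myh11 at 7.91 on control replicate 3. The 8 cell division genes averaged 8.28, 8.52 and 7.73 on the induced arrays and 9.21, 9.57 and 8.95 on the control arrays. The part of cell makeup in the clock gene values was not tested, and on such bulk arrays fewer cells of a type and less RNA per cell cannot be told apart.

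None of the 9 clock genes passed the test between induced and control cells. By limma, with Benjamini-Hochberg adjustment over all genes, 0 of 9 had an adjusted p under 0.05, where 0.749% of the 18166 genes did, and 0 of 9 had an unadjusted p under 0.05, where 17.6% of genes did. Their estimates ran from -0.31 for Bhlhe41 to 0.68 for Dbp, 6 positive and 3 negative, with a median of 0.23 beside -0.01 over all genes. The induced arrays lay wholly above the control arrays for 1 of 9 clock genes, Clock, against 12.0% of all genes, and wholly below for 0 of 9, against 13.4% of all genes. The 95% interval of the difference lay within 2-fold in either direction for 6 of 9, namely Clock, Cry1, Cry2, Per2, Per3 and Bhlhe41. Over all genes it did so for 14661 of 18166, a larger share. The intervals of Dbp, Nr1d1 and Tef reached past a 2-fold increase. These intervals are for single genes and are not adjusted for the number of genes. The same count, 0 of 9, was reached without induced replicate 3, where 3.07% of genes passed, and with array weights, where 5.11% did.

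**Figure D1:**
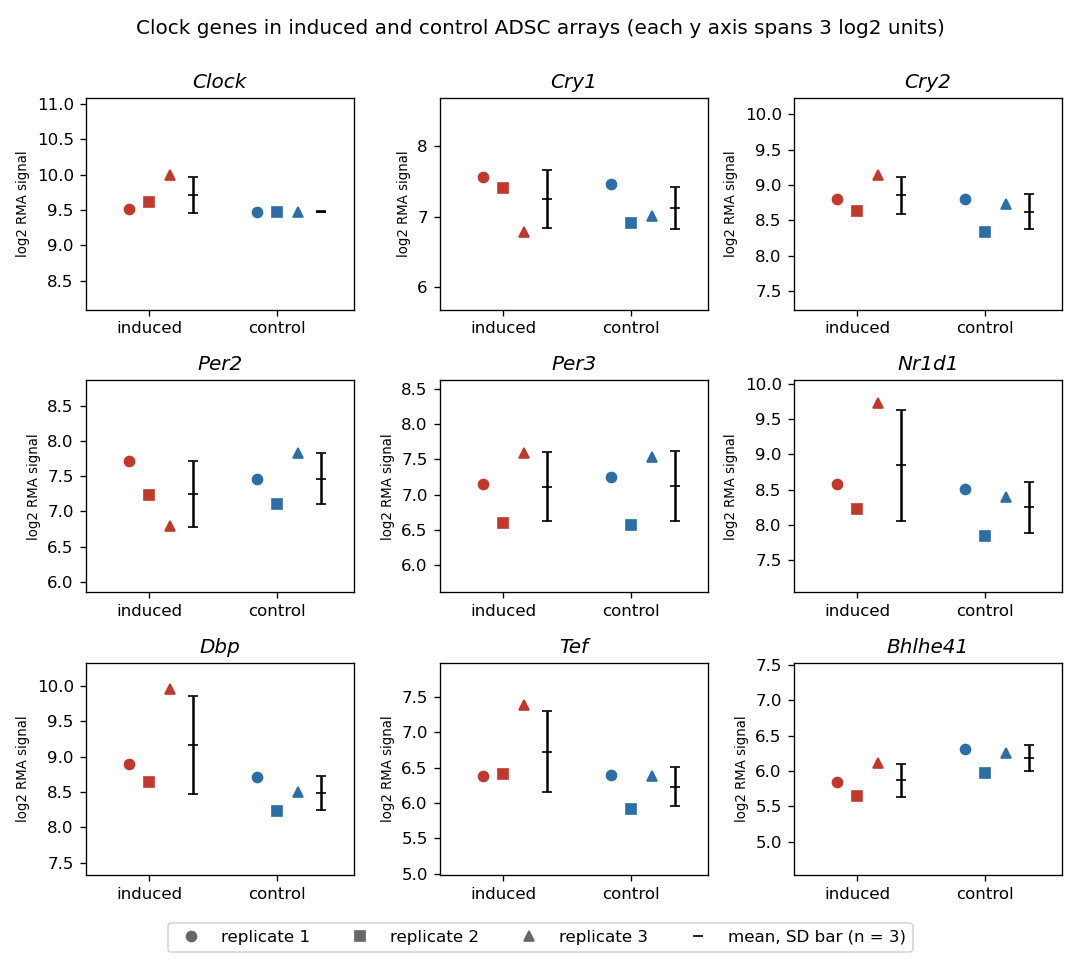
Log2 RMA signal (y axis, spanning 3 units in each panel) of the 9 measured clock genes in induced (red, left) and control (blue, right) cells, with a symbol for each replicate and the mean and SD of 3 arrays in black. Dbp, Nr1d1 and Tef are highest on induced replicate 3, and Clock is the gene whose induced and control arrays do not overlap.

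Clock (feature 17689370) encodes the basic helix-loop-helix partner of BMAL1 that drives the loop. It read 9.52, 9.61 and 10.00 on induced replicates 1 to 3, against 9.47, 9.48 and 9.48 on control replicates 1 to 3. All 3 induced arrays were above all control arrays, although induced replicate 1 exceeded the highest control array by little. The control arrays were nearly equal, with an SD of 0.0065 around a mean of 9.47, against 9.71 ± 0.25 in induced cells (SD, n = 3 each). The difference was 0.24 (SE 0.15, 95% interval -0.11 to 0.59, limma adjusted p = 0.462), and without induced replicate 3 it was 0.09.

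The PAR bZIP genes Dbp and Tef had positive estimates, and that of Dbp was the largest of the 9. Dbp (feature 17616470), a direct output of CLOCK and BMAL1 that activates genes through D-boxes, read 8.90, 8.64 and 9.95 on induced replicates 1 to 3, against 8.71, 8.23 and 8.50 on control replicates 1 to 3. Induced replicate 3 was more than 1 unit above every other array, and induced replicate 2 fell inside the control range. The difference was 0.68 (SE 0.34, adjusted p = 0.364), a 1.61-fold higher level with a 95% interval from 0.911-fold to 2.83-fold. Tef (feature 17830985), a second factor of the same family, read 6.38, 6.41 and 7.38 on the induced arrays, against 6.40, 5.91 and 6.38 on the control arrays. Induced replicates 1 and 2 lay at the level of control replicates 1 and 3, and induced replicate 3 lay nearly 1 unit above them. The estimate for Tef was 0.49 (SE 0.30, 95% interval -0.22 to 1.21, adjusted p = 0.455). Without induced replicate 3 the differences were 0.29 for Dbp and 0.16 for Tef.

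Nr1d1 (feature 17660843), the heme-binding nuclear receptor REV-ERB alpha that represses Bmal1 and is itself a target of CLOCK and BMAL1, read 8.58, 8.22 and 9.73 on induced replicates 1 to 3, against 8.51, 7.84 and 8.39 on control replicates 1 to 3. As with Dbp, the groups overlapped and induced replicate 3 was over 1 unit above the rest. The estimate was 0.60 (SE 0.40, 95% interval -0.36 to 1.55, adjusted p = 0.499), and 0.15 without induced replicate 3. Nr1d1 is known to increase during adipogenesis in mouse preadipocyte lines. Its level here averaged 8.84 ± 0.79 in induced and 8.25 ± 0.36 in control cells (SD, n = 3 each), a difference smaller than the SD among the induced arrays.

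The period and cryptochrome genes, which encode the repressors of CLOCK and BMAL1, pointed in different directions. Per2 (feature 17866453) read 7.71, 7.24 and 6.79 on induced replicates 1 to 3, against 7.46, 7.11 and 7.83 on control replicates 1 to 3. Its lowest value was on induced replicate 3, the array on which Dbp and Nr1d1 were highest. The estimate was -0.22 (SE 0.28, 95% interval -0.88 to 0.45, adjusted p = 0.754), and 0.012 without induced replicate 3. Per3 (feature 17812917), a period protein less needed for rhythm in mice, read 7.15, 6.61 and 7.58 on the induced arrays, against 7.26, 6.57 and 7.54 on the control arrays. Both groups spanned the same range of about 1 unit, with replicate 2 lowest and replicate 3 highest in each. The estimate was -0.0069 (SE 0.33, 95% interval -0.79 to 0.77, adjusted p = 0.994), and its sign changed with the array left out, between -0.28 and 0.25.

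Cry1 (feature 17827164), the stronger cryptochrome repressor, read 7.56, 7.40 and 6.78 on induced replicates 1 to 3, against 7.46, 6.90 and 7.00 on control replicates 1 to 3. It shared with Per2 a lowest value on induced replicate 3. The estimate was 0.13 (SE 0.25, 95% interval -0.46 to 0.72, adjusted p = 0.847), 0.36 without induced replicate 3 and -0.031 without induced replicate 1. Cry2 (feature 17774671), its paralog, read 8.80, 8.63 and 9.14 on the induced arrays, against 8.80, 8.33 and 8.72 on the control arrays. Here induced replicate 3 was the highest array and the other induced arrays lay within the control range. The estimate was 0.23 (SE 0.19, 95% interval -0.21 to 0.68, adjusted p = 0.574), and 0.09 without induced replicate 3.

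Bhlhe41 (feature 17796582), also called DEC2, is a basic helix-loop-helix repressor that competes with CLOCK and BMAL1 at E-boxes. It read 5.85, 5.65 and 6.12 on induced replicates 1 to 3, against 6.32, 5.97 and 6.26 on control replicates 1 to 3. It had the lowest estimate of the 9, at -0.31 (SE 0.16, 95% interval -0.70 to 0.08, adjusted p = 0.386), and only induced replicate 3 lay above a control array. The difference was -0.43 without induced replicate 3 (adjusted p = 0.201).

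Most of these genes varied widely among replicates of a group. The SD within groups had a median of 0.42 over the 9 genes, beside 0.19 over all genes, and it exceeded that of 94.7% of genes for Nr1d1, 92.1% for Dbp and 91.1% for Per3, but of 45.7% for Clock. The comparison was not matched for signal level, and 8 of the 9 genes lay above the median level. Within the induced group, induced replicate 3 was 1.33 above the mean of the other induced arrays for Nr1d1, 1.18 for Dbp, 0.99 for Tef and 0.71 for Per3, and it lay below them by -0.71 for Cry1 and -0.69 for Per2. It was the highest of all 6 arrays for 6 of 9 clock genes (Clock, Cry2, Per3, Nr1d1, Dbp and Tef) and the lowest for Cry1 and Per2, where over all genes it was highest for 26.1% and lowest for 28.9%. Within the control group, control replicate 2 was the lowest array for 8 of 9 clock genes, all but Clock, where over all genes it was lowest for 31.0%. Its distance below the other control arrays ran from -0.32 for Bhlhe41 to -0.82 for Per3. The mean of the cell division markers was highest on control replicate 2 among the controls, and that of adipocyte markers on induced replicate 3. Of single markers, Aurka was higher on control replicate 1 (7.90) than on control replicate 2 (7.80). Lep was lowest of the induced arrays on induced replicate 3 (6.78). The part of either list in the clock gene values was not tested. These shares describe 6 arrays, and the 9 genes are not independent of each other.

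**Figure D2:**
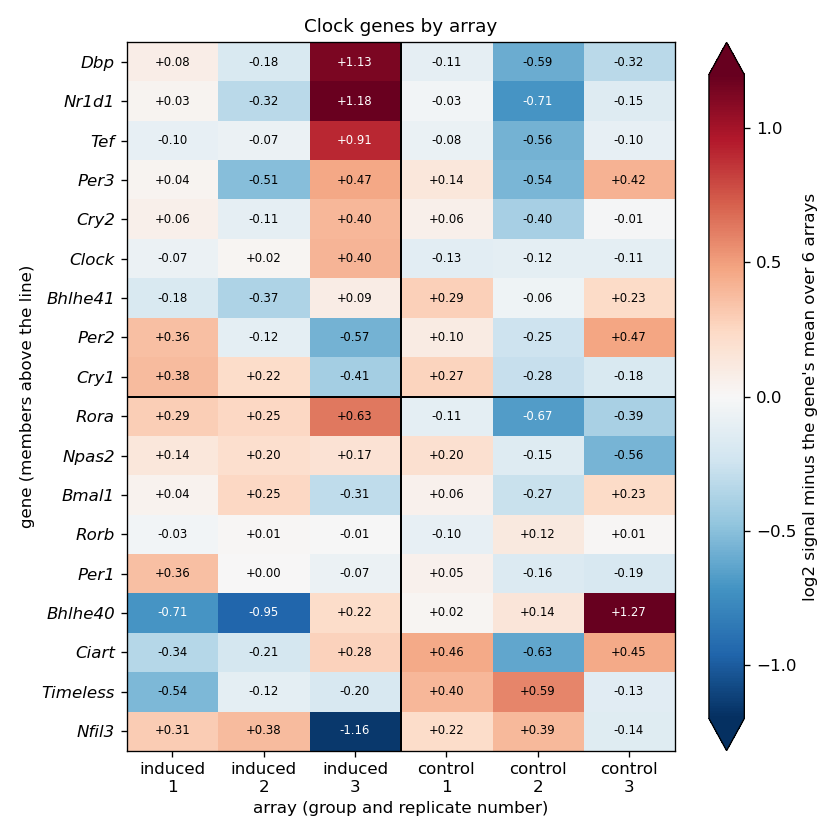
Log2 signal minus the gene's own mean over the 6 arrays (colour and printed value) for the 9 clock genes above the line and 9 further genes of the loop below it, with induced arrays left of the vertical line and control arrays right of it. On induced replicate 3 Dbp stands at 1.13, Nr1d1 at 1.18 and Tef at 0.91, while Per2 stands at -0.57 and Nfil3 at -1.16.

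Dbp, Nr1d1 and Tef followed each other across the arrays. With each gene centred on its own mean, the root mean square difference from Dbp over the 6 arrays was 0.11 log2 units for Nr1d1 and 0.15 for Tef, which placed them 10 and 60 in order of likeness among 18065 genes. For Per2 it was 0.79, at place 15515. The genes most like Dbp were Acsf3, a mitochondrial malonyl-CoA synthetase (0.069), Plekhh3 (0.070) and Hsd17b10, a mitochondrial dehydrogenase (0.087), none a clock gene on the lists used here. Those most like Bhlhe41 were Cby1 (0.042), the kinase gene Rps6ka5 (0.052) and the transporter gene Abcc4 (0.060). With 6 arrays, 1 of which stands apart, likeness of this kind cannot show shared control, which was not tested.

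Promoter sequences of Tef, Nr1d1 and Per2 are shown because the windows hold letters of the elements through which the loop acts, and because Tef and Nr1d1 followed Dbp across the arrays while Per2 did not. Each window runs from 250 bases before to 50 bases after a gene start in RefSeq (build GRCr8), is written 5′ to 3′ on the gene's strand, and has matches in capitals. The windows lie at chr7:115206577-115206876 (plus strand) for Tef, chr9:99496944-99497243 (minus strand) for Per2, and chr10:84231763-84232062 and chr10:84229405-84229704 (both minus strand) for the upstream and downstream starts of Nr1d1.
Tef: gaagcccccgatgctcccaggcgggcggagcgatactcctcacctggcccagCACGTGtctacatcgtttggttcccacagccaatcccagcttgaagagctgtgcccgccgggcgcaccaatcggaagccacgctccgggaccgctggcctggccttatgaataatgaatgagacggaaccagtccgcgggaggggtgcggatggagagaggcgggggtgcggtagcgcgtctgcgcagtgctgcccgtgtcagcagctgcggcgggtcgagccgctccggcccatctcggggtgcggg
Nr1d1, upstream start: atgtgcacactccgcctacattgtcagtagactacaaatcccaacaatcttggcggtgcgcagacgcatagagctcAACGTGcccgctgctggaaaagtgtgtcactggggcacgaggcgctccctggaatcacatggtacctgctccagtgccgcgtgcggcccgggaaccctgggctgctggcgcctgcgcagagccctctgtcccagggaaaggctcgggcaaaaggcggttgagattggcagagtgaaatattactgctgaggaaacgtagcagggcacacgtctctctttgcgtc
Nr1d1, downstream start: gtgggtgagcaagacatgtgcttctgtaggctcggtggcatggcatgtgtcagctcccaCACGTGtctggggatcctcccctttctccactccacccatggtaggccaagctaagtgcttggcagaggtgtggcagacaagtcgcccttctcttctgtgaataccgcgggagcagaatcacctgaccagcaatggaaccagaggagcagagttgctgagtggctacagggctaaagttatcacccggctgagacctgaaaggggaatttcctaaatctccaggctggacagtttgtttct
Per2: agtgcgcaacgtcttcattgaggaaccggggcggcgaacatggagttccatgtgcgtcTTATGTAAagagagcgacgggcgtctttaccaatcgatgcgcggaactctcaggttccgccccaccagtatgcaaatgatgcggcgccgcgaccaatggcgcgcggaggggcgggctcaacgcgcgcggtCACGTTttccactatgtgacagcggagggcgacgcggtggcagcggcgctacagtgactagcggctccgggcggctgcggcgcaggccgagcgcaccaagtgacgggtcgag
The E-box CACGTG, which reads the same on both strands, was at position -198 from the gene start in Tef and at -191 in the downstream window of Nr1d1. The variant CACGTT, searched on both strands, was at -62 in Per2 and, as AACGTG, at -174 in the upstream window of Nr1d1. The D-box TTATGTAA, also searched on both strands, was at -192 in Per2. Matches did not overlap in these windows.

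Among all 33469 RefSeq windows of this length, CACGTG was in 6.42%, CACGTT in 4.83% and TTATGTAA in 0.893%. The 10 clock genes had 11 windows in the table, none of them for Cry1. Of these, 3 held CACGTG (Bhlhe41, Nr1d1 and Tef), 3 held CACGTT (Cry2, Nr1d1 and Per2) and 1 held TTATGTAA (Per2). The D-box form TTACGTAA was in 0 of 11 and in 0.120% of all windows. AGGTCA, the core bound by REV-ERB and ROR receptors, was in 1 of 11 (Nr1d2) and in 16.2% of all windows. The Dbp window held none of these elements, and Bhlhe41, whose window held CACGTG, was at place 8593 in likeness to Dbp. The windows shown were picked for their matches and for the genes' likeness to Dbp. They therefore say nothing of a link between elements and array patterns. The matching windows of Cry2, Bhlhe41 and Nr1d2 are not shown. A match is a description of letters, and its absence from a window says nothing of binding elsewhere.

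The rest of the pathway gave no call either. Of 29 further clock genes 23 were measured, and 0 of 23 passed (limma, adjusted over all genes), where 0.749% of all genes did. Of the estimates 11 were positive and 12 negative, with a median of -0.01. An unadjusted p under 0.05 was reached by 4 of 23 (Rora, Timeless, Prkaa1 and Nampt), a share near the 17.6% of all genes. The induced arrays lay wholly above the control arrays for 5 of 23 (Rora, Csnk1e, Prkaa1, Nampt and Por), beside 12.0% of all genes, and wholly below for 0 of 23, beside 13.4% of all genes. Csnk1e and Por are named here because of that count, after their values were seen.

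Among the other activators, Bmal1, the partner of CLOCK, read 8.53, 8.74 and 8.18 on induced replicates 1 to 3, against 8.54, 8.22 and 8.72 on control replicates 1 to 3, with an estimate of -0.013 (SE 0.19, 95% interval -0.48 to 0.45, adjusted p = 0.983). The groups covered the same range, and the estimate was 0.14 without induced replicate 3. Rora, a receptor that activates Bmal1, read 9.21, 9.17 and 9.55 on the induced arrays, against 8.81, 8.25 and 8.53 on the control arrays. The groups did not overlap, and the estimate was 0.78 (SE 0.18, 95% interval 0.34 to 1.22, adjusted p = 0.114). Array weights gave induced replicate 3 a weight of 0.273. With them Rora passed at 0.78 (limma adjusted p = 0.0379), where 5.11% of all genes passed. Npas2, a paralog of Clock, had an estimate of 0.34 (adjusted p = 0.418), and Rorb, a receptor mainly of the nervous system, one of -0.02 (adjusted p = 0.956).

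Among the other repressors, Bhlhe40, the paralog of Bhlhe41, read 9.45, 9.21 and 10.38 on induced replicates 1 to 3, against 10.18, 10.30 and 11.43 on control replicates 1 to 3. Replicate 3 was the highest array of each group, and induced replicate 3 overlapped the control range. The estimate was -0.96 (SE 0.43, 95% interval -1.97 to 0.06, adjusted p = 0.309), in the same direction as that of Bhlhe41. Without both arrays numbered 3 Bhlhe40 passed at -0.91 (limma adjusted p = 0.0244), where 740 of 18166 genes passed. Timeless, which in mammals acts mainly at DNA replication forks, had an estimate of -0.57 (adjusted p = 0.25), Ciart, a repressor of CLOCK and BMAL1, one of -0.19 (adjusted p = 0.827), and Per1 one of 0.20 (adjusted p = 0.557). Ciart read 6.03 on control replicate 2 and 7.11 on both other control arrays, so it too was lowest there.

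Nfil3, the D-box repressor that opposes Dbp and Tef, read 8.81, 8.88 and 7.34 on induced replicates 1 to 3, against 8.72, 8.89 and 8.36 on control replicates 1 to 3. Its estimate was -0.31 (SE 0.42, 95% interval -1.31 to 0.69, adjusted p = 0.767). It was lowest on induced replicate 3, where Dbp and Tef were highest. Without that array the estimate was 0.19.

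In the enzymes that modify or degrade clock proteins, 0 of 8 measured genes passed, beside 0.749% of all genes. Prkaa1, the AMP-activated kinase subunit whose kinase marks cryptochromes for degradation, had the largest estimate at 0.46 (SE 0.14, adjusted p = 0.18), followed by the casein kinase 2 subunit Csnk2a1 at 0.21 (adjusted p = 0.577) and by Csnk1e, a casein kinase that phosphorylates period proteins, at 0.21 (adjusted p = 0.393). Among clock outputs 0 of 6 passed, beside the same 0.749%. Nampt, the rate-limiting enzyme of NAD salvage and also a secreted product of fat, read 9.38, 9.32 and 11.07 on induced replicates 1 to 3, against 8.83, 7.85 and 7.54 on control replicates 1 to 3. It was the 1 clock pathway gene with an estimate of at least 2-fold, at 1.85 (SE 0.54, 95% interval 0.55 to 3.15, adjusted p = 0.169). Cdkn1a, a cell cycle inhibitor, had an estimate of 0.69 (adjusted p = 0.46) and Por, the electron donor of cytochrome P450 enzymes, one of 0.67 (adjusted p = 0.356). Without induced replicate 3 the estimates were 0.25 for Cdkn1a, 0.28 for Por and 0.04 for Csnk2a1.

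**Figure D3:**
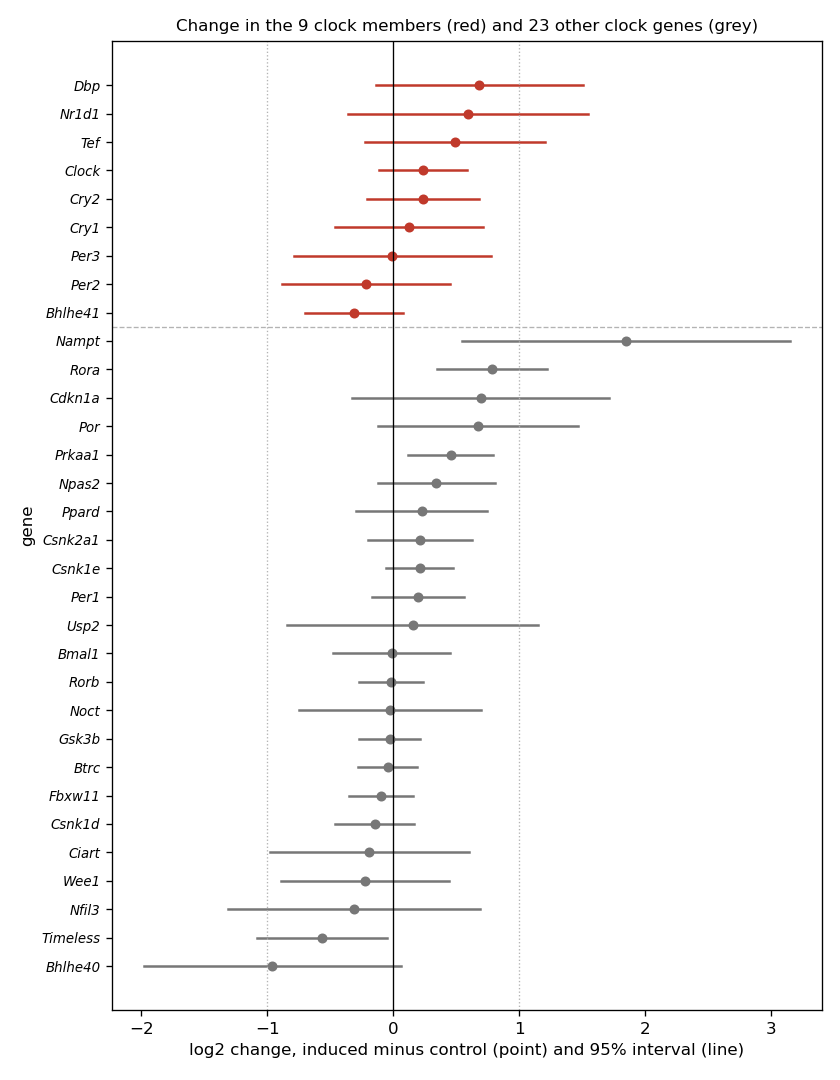
Log2 change, induced minus control (points), with the 95% interval of the fit for each gene (lines, not adjusted for the number of genes), for the 9 clock genes in red and 23 further clock genes in grey; dotted lines mark 2-fold. Every red line crosses 0, and among grey lines those of Nampt, Rora, Prkaa1 and Timeless do not.

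The medium held dexamethasone, and Per1 is a direct target of the glucocorticoid receptor. Of 5 glucocorticoid-induced genes read beside it, Per1 included, 2 passed, where 0.749% of all genes did. Tsc22d3, a glucocorticoid-induced leucine zipper, read 9.47, 9.45 and 9.11 on induced replicates 1 to 3, against 6.80, 6.83 and 7.46 on control replicates 1 to 3 (adjusted p = 0.0154). Fkbp5, which encodes a co-chaperone that damps the receptor, read 10.42, 10.52 and 10.56 on the induced arrays, against 9.19, 9.21 and 8.55 on the control arrays (adjusted p = 0.033). With 1 array left out the estimates stayed at 2.20 to 2.53 for Tsc22d3 and 1.30 to 1.63 for Fkbp5, but both calls were lost in some of these fits. The limma adjusted p of Tsc22d3 rose above 0.05 without induced replicate 1 (0.102), induced replicate 2 (0.0795) or control replicate 2 (0.0706). That of Fkbp5 did so without induced replicate 1 (0.155), induced replicate 2 (0.124), control replicate 1 (0.0598), control replicate 2 (0.0883) or control replicate 3 (0.051). Zbtb16, a zinc finger repressor, had an estimate of 2.51 with groups that did not overlap (adjusted p = 0.15), and the kinase gene Sgk1 had one of -0.57 with groups that did (adjusted p = 0.539). Per1 read 9.15, 8.79 and 8.72 on the induced arrays, against 8.84, 8.63 and 8.60 on the control arrays. Its groups overlapped, and its estimate of 0.20 had a 95% interval of -0.16 to 0.56 (limma adjusted p = 0.557). The medium also held IBMX, and of 5 cAMP-induced genes 0 passed, 2 with positive and 3 with negative estimates. The induced arrays lay wholly below the control arrays for Nr4a1 (-2.56) and Pde4d (-0.69), and wholly above for Crem (0.48). Over all genes the shares were 13.4% below and 12.0% above. Nr4a1 passed without induced replicate 3 (-1.65, limma adjusted p = 0.00355), where 3.07% of genes did.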

How the data were processed

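One-colour Affymetrix arrays measured 3 induced and 3 control cultures, from biotin-labelled cRNA of 6 µg total RNA, per the labels' protocols. The authors deposited log2 values made with RMA, per the submitters' processing notes, which name no version. The log2 scale was read from the values, with array medians from 5.64 to 5.73. RMA gives no detection call and compresses low signals, and quantile normalization hides changes in total RNA. The number of arrays limits the precision.

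Of 36685 features 18511 had 1 gene symbol, 575 several, and the feature with the highest mean was kept for each of 18166 genes. The groups were fitted by limma 3.58.1 under R 4.3.3 (lmFit, eBayes, two-sided, no block, 4 residual degrees of freedom), adjusted by Benjamini-Hochberg over all genes, threshold 0.05. The smallest p that exact permutation of 3 and 3 arrays allows is 0.1, and no such test was used. On simulated data for this comparison (18166 genes), the fit called 37 of 67 genes shifted by 1 log2 unit, 59 of 67 shifted by 2 and 62 of 66 shifted by 4, with 7 false calls. The shifted genes were drawn at random, with independent normal noise at each gene's own SD and no array that stood apart. The clock genes had a median SD of 0.42, beside 0.19 over all genes, so these shares do not apply to them.

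All members are named, then every called pathway gene, the 2 with the largest estimate in each pathway group, and the other activators, repressors and Nfil3. Likeness was taken for the members with the highest and the lowest estimate, leaving out symbols that start with LOC or RGD. The members and lists were chosen with earlier results of these data known. Some genes of the lists were not analysed here. Same-numbered arrays of the 2 groups are not described as paired. Alternatives were a replicate block, other feature choices, a filter on dim genes, median centring, array weights, another prior, and arrays left out.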

Additional observations from a re-analysis of the deposited data

How the results depend on the processing

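The count of clock genes that passed was 0 of 9 under every alternative tried (0 of 8 with only genes above the median level, a filter Bhlhe41 does not reach). Their median change of 0.23 was 0.09 to 0.29 with 1 array left out, 0.20 without both arrays numbered 3 and 0.21 with array weights. It fell to 0.09 both without induced replicate 3 and without control replicate 2. The count over all genes, 136, became 12 with the replicate block, 69 with all features tested singly, 929 with array weights and 740 without both arrays numbered 3, and ranged from 2 to 557 with 1 array left out (2 without induced replicate 1, 26 without induced replicate 2, 557 without induced replicate 3, 15 without control replicate 2 and 20 without control replicate 3); the cause was not tested. Same-numbered arrays deviated together at r = 0.023, 0.12 and 0.154 across genes for numbers 1 to 3. Induced replicates 2 and 3 each correlated best with the same-numbered control array, and induced replicate 1 with control replicate 2 (r = 0.123). The labels do not describe pairs, so the main fit used no block, and whether the numbers mark pairs was not settled. The replicate block gave no call among clock genes, and under it the limma adjusted p was 0.0687 for Tsc22d3 and 0.0822 for Fkbp5. With all features tested singly it was 0.0563 for Fkbp5. Of 23 further clock genes 1 passed with array weights (Rora), where 5.11% of all genes did. Without both arrays numbered 3 it was 1 of 23 (Bhlhe40), where 740 of 18166 genes passed. With any 1 array left out 0 of 23 passed.

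Small estimates changed sign. With array weights the estimate was 0.17 for Bmal1, 0.0145 for Nfil3, 0.067 for Per2 and -0.23 for Usp2, and without both arrays numbered 3 it was 0.25, 0.042, 0.195 and -0.35 for the same genes. With 1 array left out, the range was -0.15 to 0.14 for Bmal1, -0.031 to 0.36 for Cry1, -0.58 to 0.19 for Nfil3, -0.45 to 0.012 for Per2, -0.28 to 0.25 for Per3, -0.073 to 0.037 for Rorb, -0.37 to 0.15 for Noct, -0.37 to 0.43 for Usp2 and -0.43 to 0.037 for Wee1. For Dbp it was 0.29 to 0.95, for Nr1d1 0.15 to 0.91 and for Tef 0.16 to 0.66, each lowest without induced replicate 3. With 3 arrays a group, a 2-fold difference lies inside the 95% intervals of Dbp, Nr1d1 and Tef.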

Other observations

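Some further clock pathway genes, named after their values were seen, also read differently on induced replicate 3. Usp2, a deubiquitinase with a known circadian rhythm, read 6.85, 6.89 and 8.43 on induced replicates 1 to 3, against 7.25, 7.18 and 7.27 on control replicates 1 to 3 (limma adjusted p = 0.893). Induced replicates 1 and 2 were below all control arrays and induced replicate 3 above them, and without it the estimate was -0.37 (adjusted p = 0.149). Noct, a phosphatase also called nocturnin, read 6.97, 6.93 and 7.97 on the induced arrays, against 7.11, 7.24 and 7.60 on the control arrays (adjusted p = 0.979), the same arrangement. Wee1, a kinase that holds back mitosis, read 7.50, 7.69 and 6.81 on the induced arrays, against 7.66, 7.86 and 7.15 on the control arrays (adjusted p = 0.744), with replicate 3 lowest in each group.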
